A study of Sus scrofa with 30 samples.

Results

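The EGF family of growth factors and the ERBB receptors they bind were followed through the mammary cycle of the sow. The genes were chosen by name and comprise 7 ligands (EGF, AREG, EREG, HBEGF, TGFA, BTC and NRG1) and 3 receptors (EGFR, ERBB2 and ERBB3). They are 10 of the 14907 reference genes in the table and hold 15 of its 61773 transcript rows. RNA was sequenced from the mammary parenchyma of related multiparous Danish Landrace × Yorkshire sows. The 5 stages were gestation day 70 (MG), gestation day 110 (LG), postpartum day 2 (EL), postpartum day 10 (PL) and post-weaning day 2 (W2), each with 6 sows. In the sample records the libraries titled EL carry the stage name of mid-gestation and those titled MG that of early lactation, and the titles were followed here.

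Only 3 libraries per stage were counted as replicates: MG 1, 3 and 6, LG 1, 3 and 4, EL 3, 4 and 6, PL 2, 3 and 6, and W2 2, 3 and 6. The other 3 of each stage are near copies of the mean of these, with median differences between any pair of at most 1.80% to 1.85% by stage, against at least 19.5% to 22.9% between counted libraries. For the ligands at low levels the near copies still departed from the counted mean. EGF in MG averaged 0.0199 units in the counted libraries and 0.969 units in the near copies, the largest such gap among the members. Values are transcript levels per length that sum to about 1000000 in each library, and they are called units here. The table gives no read counts, so the depth behind a single value is unknown and its error was taken from the spread between sows.

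The ligands of this family are made as membrane-anchored precursors and are released by metalloproteases such as ADAM17. EGF, AREG and TGFA bind EGFR, while BTC, EREG and HBEGF bind EGFR and ERBB4, and NRG1 binds ERBB3 and ERBB4. ERBB2 has no known ligand of its own and ERBB3 has little kinase activity, so both signal mainly as partners in receptor pairs. In the mammary gland AREG is known as a mediator of ductal growth, ERBB4 for its part in lactation, and EGF as a growth factor secreted into milk.

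EGF and NRG1 were the members that differed between stages, and they moved in opposite directions at the peak of lactation. EGF rose in PL over MG, LG and EL and fell again in W2. NRG1 was lower in PL than in MG and LG and rose in W2, and EREG rose from PL to W2. ERBB3 was by far the most abundant member in every library. In the test over the 5 stages (limma's moderated F test on log2(units + 0.5), Benjamini-Hochberg adjustment over all 26019 genes and loci), 2 of the 10 members passed an adjusted p of 0.05, beside 18.3% of all features. Of the 100 pairs of a member and a comparison, 8 passed, beside 7.81% of all such pairs. Both shares lie near their background. NRG1 passed narrowly, and its adjusted p over the stages stayed below 0.05 in 1 of 15 fits that left out a library. With libraries scaled by their median ratio NRG1 did not pass that test (limma, adjusted p = 0.13), while EGF did (adjusted p = 0.00054).

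The mean level over the 15 counted libraries placed ERBB3 first at 92.5 units, above 95.4% of the reference genes. EGFR followed with a mean of 18.0 units, ERBB2 with 15.5 units and TGFA with 11.1 units. The other ligands were low. EGF had a mean level of 1.74 units, HBEGF 1.40, NRG1 0.829, EREG 0.699, AREG 0.667 and BTC 0.450 units, and BTC stood above only 5.97% of the reference genes. Neighbours in this order were often not separated: EGFR exceeded ERBB2 in 8 of 15 libraries, EGF exceeded HBEGF in 5, NRG1 exceeded EREG in 8, and AREG exceeded BTC in 8. ERBB3 exceeded EGFR, ERBB2 and every ligand in 15 of 15.

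**Figure D1:**
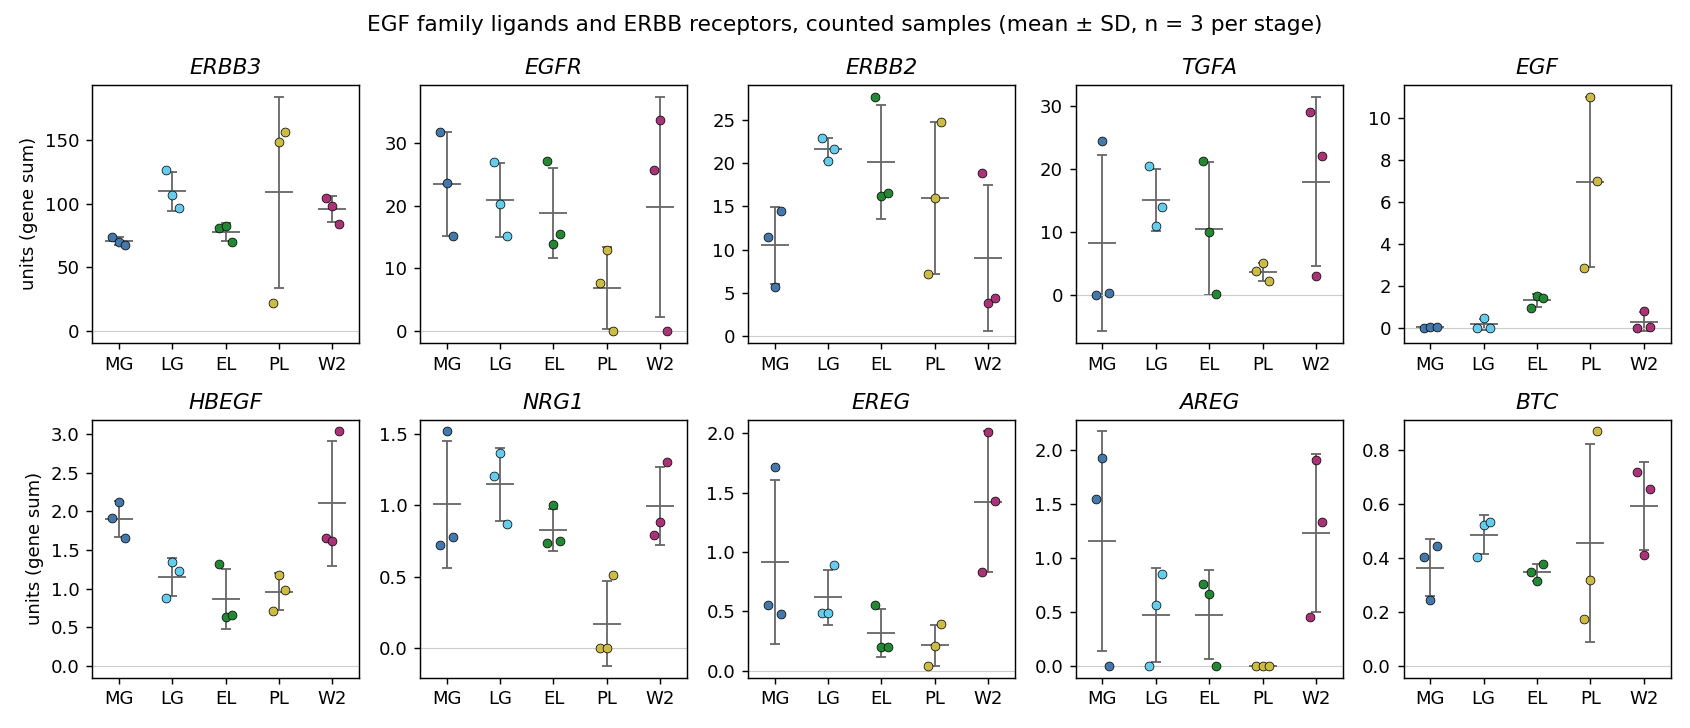
Level of each of the 10 members (units, sum of its reference transcripts, a separate linear scale for each gene) in the 3 counted libraries of MG, LG, EL, PL and W2; points are libraries and bars are the mean ± SD (n = 3). EGF is highest in PL, from 2.84 to 11.0 units, AREG is listed at 0 in all 3 PL libraries, and ERBB3 in PL spreads from 22.3 to 156 units.

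EGF (chr8:112235607-112330062 of Sscrofa11.1, gene ID 397083), the founding ligand of the family, was listed at 0, 0.0400 and 0.0196 units in MG 1, 3 and 6 and at 0.00821, 0.477 and 0 units in LG 1, 3 and 4. It stood at 0.944, 1.53 and 1.42 units in EL 3, 4 and 6 and at 2.84, 11.0 and 7.00 units in PL 2, 3 and 6. After weaning it was listed at 0, 0.804 and 0.0527 units in W2 2, 3 and 6. The 3 PL libraries lay above the 12 others without overlap, and the EL libraries lay above all those of MG, LG and W2. PL exceeded MG by 3.67 ± 0.48 (SE) on the log2(units + 0.5) scale (limma, adjusted p = 0.00044), LG by 3.39 (adjusted p = 0.0012) and EL by 1.89 (adjusted p = 0.044), and W2 fell by 3.21 from PL (adjusted p = 0.00063). This scale understates the change of a gene near 0. The excess over EL held the threshold in 3 of the 15 fits that left out a library (those without LG 3, PL 2 or W2 3, with adjusted p up to 0.16 in the rest), and the other EGF differences held in all 15. The rises from MG to EL (1.78, adjusted p = 0.23) and from LG to EL (1.50, adjusted p = 0.70) did not pass.

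The table holds 3 of the 4 annotated EGF transcripts, and 1 of them, XR_002346366.1, is annotated as non-coding. The coding transcripts NM_214020.1 and XM_021100462.1 were listed at 0 in every counted library of MG, LG and W2. NM_214020.1 reached 0.996 units in PL 2 and 9.16 in PL 3, and XM_021100462.1 reached 1.68 units in PL 3 and 4.61 in PL 6. In EL both were seen in EL 4 alone, at 0.286 and 0.949 units, so most of the EGF signal of EL belonged to the non-coding transcript. In the PL libraries that transcript stood at 1.85, 0.138 and 2.40 units. With the non-coding transcript left out, an alternative chosen after seeing the data, PL exceeded MG by 3.15 (limma, adjusted p = 0.0041) and EL by 2.55 (adjusted p = 0.038), and W2 fell by 3.15 (adjusted p = 0.0031). The authors kept transcripts at an FPKM of at least 0.5 in any stage. The 2 coding transcripts may have been kept through their PL level, so this alternative gives no separate support for the PL excess. How the assembler shares reads among isoforms of a gene sets this split, and it was not tested.

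**Figure D2:**
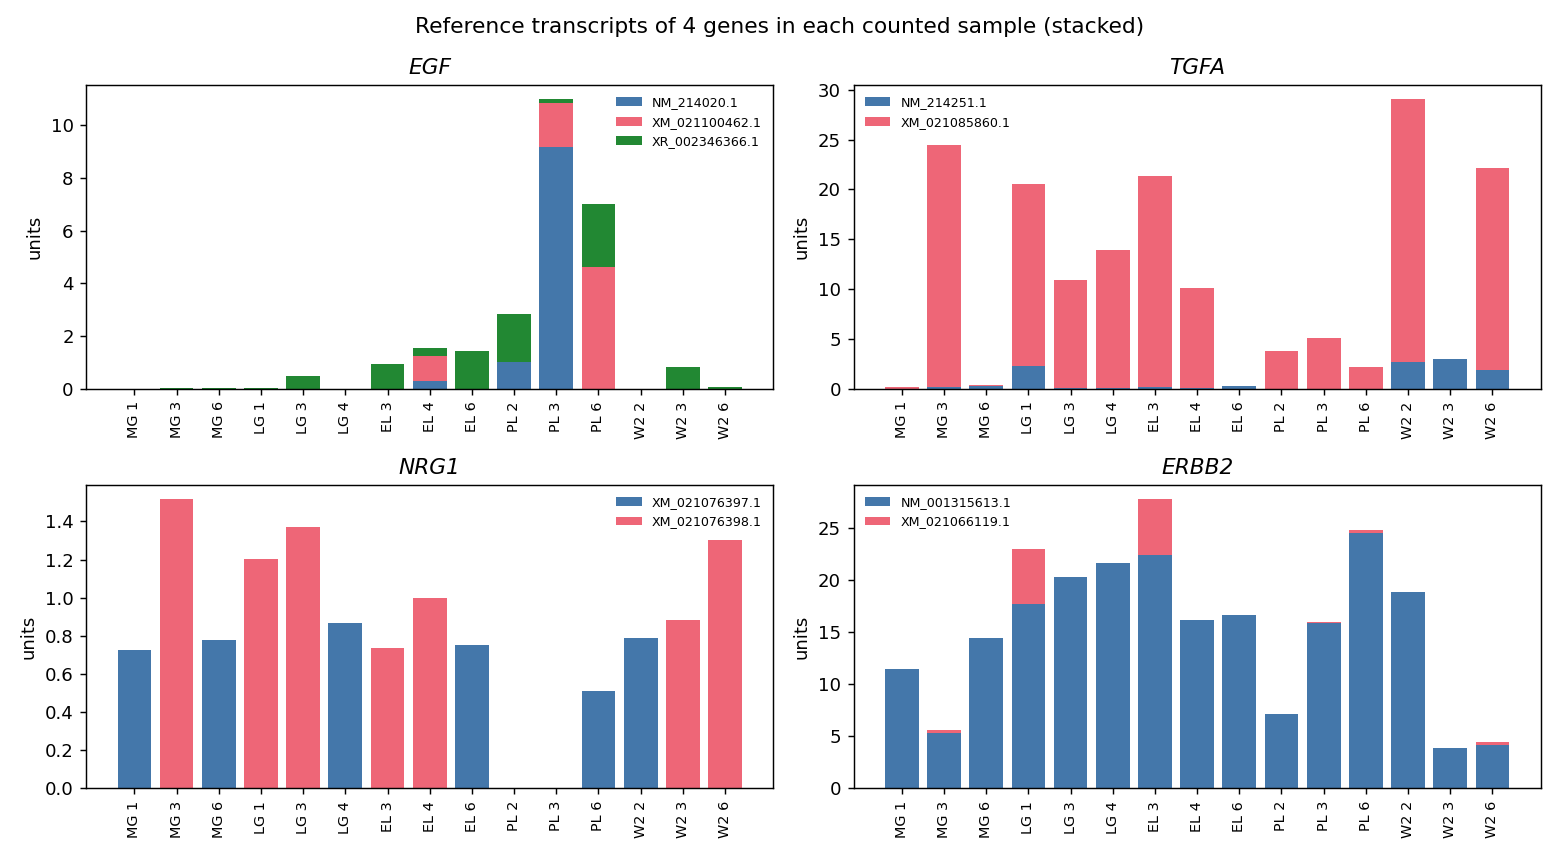
Level (units, stacked bars) of each reference transcript of EGF, TGFA, NRG1 and ERBB2 in each of the 15 counted libraries, with a separate linear scale for each gene. EGF bars are tallest in PL 3 (11.0 units) and consist of different transcripts in PL 2, 3 and 6, and the 2 NRG1 transcripts never appear in the same library.

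TGFA (chr3:71948232-72054257), the ligand with the highest mean, varied more between sows than between stages. It stood at 0.108, 24.5 and 0.325 units in MG and at 20.5, 10.9 and 13.9 units in LG. In EL it ranged from 0.237 to 21.3 units, in PL from 2.19 to 5.04 units and in W2 from 3.01 to 29.0 units. Single libraries of MG and EL thus lay below every PL library while others of the same stage were near the top of the range. W2 exceeded PL by 1.73 (SE 1.43, limma, adjusted p = 0.37). Most of the mean level came from XM_021085860.1, although it was listed at 0 in W2 3 and below NM_214251.1 in MG 6 and EL 6. The second transcript, NM_214251.1, behaved otherwise: it was listed at 0 in all 3 PL libraries and stood at 2.66, 3.01 and 1.83 units in W2 2, 3 and 6. Among the 12 libraries outside W2 it exceeded 1 unit only in LG 1, at 2.29 units. It was the only member transcript called a differentially expressed transcript (DET, with an adjusted p under 0.05 and a change of 2 or more on the log2 scale in either direction). Its W2 vs PL difference was 2.56 (limma over 61773 transcripts, adjusted p = 0.014). In that comparison 2.84% of all transcripts were DETs.

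NRG1 (chr15:52625550-53688003), the neuregulin that binds ERBB3, was listed at 0 in PL 2 and PL 3 and stood at 0.512 units in PL 6. In the 12 libraries of the other stages it ranged from 0.724 to 1.52 units, so that no PL library reached any of them. PL was lower than MG by a log2 difference of -1.21 (limma, adjusted p = 0.020) and lower than LG by -1.37 (adjusted p = 0.017), and W2 exceeded PL by 1.22 (adjusted p = 0.015). The difference between PL and EL, -1.07, did not pass (limma, adjusted p = 0.094). The test over all stages gave an adjusted p of 0.046, and it stayed below 0.05 in 1 of the 15 fits with a library left out, the one without PL 6 (range 0.014 to 0.15). The difference from MG did not pass without MG 3 (-0.98, adjusted p = 0.080) or PL 2 (-1.04, adjusted p = 0.054), that from LG without LG 1 or LG 3 (adjusted p = 0.052 and 0.056), and the rise in W2 without W2 6 (1.08, adjusted p = 0.051). Of the 12 annotated NRG1 transcripts 2 are in the table, XM_021076397.1 and XM_021076398.1. Each of the 13 libraries with NRG1 above 0 carried only 1 of them.

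AREG, EREG and BTC lie side by side on chromosome 8 with EPGN (epigen), a further EGFR ligand, and these are the 4 protein-coding genes in a span of 430672 bases. EREG (chr8:70351316-70372530), epiregulin, stood at 0.556, 1.71 and 0.481 units in MG and between 0.484 and 0.888 units in LG. It was at 0.555, 0.204 and 0.198 units in EL, at 0.0450, 0.208 and 0.391 units in PL, and at 0.830, 2.01 and 1.43 units in W2. The W2 libraries lay above all those of EL and PL. W2 exceeded PL by 1.41 ± 0.38 (SE) on the log2 scale (limma, adjusted p = 0.014), and this did not pass with W2 3 left out (1.19, adjusted p = 0.054). AREG (chr8:70417935-70428106), amphiregulin, was listed at 0 in all 3 PL libraries. In W2 2, 3 and 6 it stood at 0.458, 1.91 and 1.33 units, and in MG at 1.54, 1.93 and 0 units. Its W2 vs PL difference of 1.69 missed the threshold (limma, adjusted p = 0.051), and it passed with MG 3, MG 6, LG 1, EL 6 or W2 2 left out (adjusted p from 0.021 to 0.049). With libraries scaled by their median ratio the AREG difference was 1.50 and did not pass (limma, adjusted p = 0.12). BTC (chr8:70645721-70697538), betacellulin, ranged from 0.175 to 0.870 units, both extremes being PL libraries, and the neighbouring EPGN stayed between 0.712 and 1.67 units throughout. Of these 4 neighbours EREG alone passed in a comparison.

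HBEGF (chr2:142102455-142115192), the heparin-binding ligand, was highest at both ends of the series. It stood at 1.91, 2.12 and 1.66 units in MG, between 0.880 and 1.35 units in LG, and at 1.32, 0.629 and 0.662 units in EL. In PL it was at 0.707, 1.18 and 0.985 units and in W2 at 1.66, 1.62 and 3.03 units. The W2 libraries lay above all those of LG, EL and PL, yet the W2 vs PL difference of 0.81 did not pass (limma, adjusted p = 0.051) unless EL 3 (adjusted p = 0.038) or PL 3 (adjusted p = 0.047) was left out. That difference lies near the median shift of all features (0.68). With libraries scaled by their median ratio it was 0.27 (limma, adjusted p = 0.51), and W2 3 (1.30 units) then stood below PL 3 (1.41 units).

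Among the receptors ERBB3 (chr5:21474218-21495040), the partner of ERBB2 that binds neuregulin, stood at 73.8, 70.3 and 67.8 units in MG, at 126, 107 and 96.4 units in LG and at 80.7, 82.4 and 69.6 units in EL. In PL it was at 22.3, 148 and 156 units and in W2 at 105, 98.3 and 84.4 units. PL thus held the lowest value and both of the highest. With all 15 libraries ERBB3 did not pass the test over stages (limma, adjusted p = 0.84), and PL vs MG gave a difference of 0.19 (adjusted p = 0.84). PL 2, the low library, also held the largest sum of milk protein transcripts (285004 units, against 138798 and 91237 in PL 3 and PL 6) and the lowest sum of luminal epithelium markers (771 units, against at least 1137 in any other library); the part of these in the ERBB3 value was not tested. Without PL 2, ERBB3 passed the test over all stages (limma, adjusted p = 0.0018, beside 20.7% of all features) and PL exceeded MG by 1.10 (adjusted p = 0.00037), LG by 0.48 (adjusted p = 0.037) and EL by 0.97 (adjusted p = 0.0014). W2 then fell by 0.67 from PL (adjusted p = 0.0042). Without PL 3 or PL 6 the PL vs MG difference turned to -0.25 or -0.29 and did not pass.

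EGFR (chr9:139302410-139474632), the receptor of EGF, AREG and TGFA, ranged from 15.2 to 31.7 units in MG, from 15.3 to 27.0 units in LG and from 14.0 to 27.1 units in EL. It stood at 7.73, 12.9 and 0 units in PL and at 25.7, 33.7 and 4e-06 units in W2. All 3 PL libraries lay below all those of MG, LG and EL as deposited. With libraries scaled by their median ratio PL 3 (15.4 units) stood above MG 6 (13.3 units) and LG 4 (13.9 units). The lone values at or near 0 in PL 6 and W2 6 sit beside levels of several units in their own stages. Of the 5676 reference genes with a median of at least 10 units, 179 (3.15%) were listed at 0 in at least 1 counted library, so an entry of 0 need not mean that a gene was silent. PL was lower than MG by a log2 difference of -2.60 with an SE of 1.43 (limma, adjusted p = 0.20).

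ERBB2 (chr12:22591621-22621384), the receptor without a ligand of its own, stood at 11.4, 5.62 and 14.4 units in MG, at 22.9, 20.2 and 21.6 units in LG and at 27.7, 16.2 and 16.6 units in EL. In PL it was at 7.14, 15.9 and 24.8 units and in W2 at 18.8, 3.83 and 4.43 units. LG was the most even stage, and no MG library reached any LG or EL library. None of its differences passed; the largest in size were W2 vs LG at -1.57 (limma, adjusted p = 0.58) and W2 vs EL at -1.43 (adjusted p = 0.15). Without W2 2 the test over all stages gave an adjusted p of 0.036, and W2 fell by 1.67 from PL (adjusted p = 0.025).

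ERBB4 (chr15:113966573-115096984), the remaining receptor of the family and a gene of the pathway list below, was the scarcest. It stood at 1.32 ± 0.14 units in MG (SD, n = 3) and then at 0.895 ± 0.11 units in LG, 0.529 ± 0.30 in EL and 0.373 ± 0.16 in PL, before 1.86 ± 0.089 units after weaning. It was lowest in PL where EGF was highest. PL was lower than MG by -1.07 on the log2 scale (limma, adjusted p = 0.011) and W2 exceeded PL by 1.45 (adjusted p = 0.0017), or by 1.04 with libraries scaled by their median ratio (adjusted p = 0.0082). Of the transcripts of the 4 receptors, ERBB3 made up 59.2% to 93.0% in the single libraries, EGFR at most 26.8%, ERBB2 2.78% to 20.3% and ERBB4 0.239% to 2.12%.

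**Figure D3:**
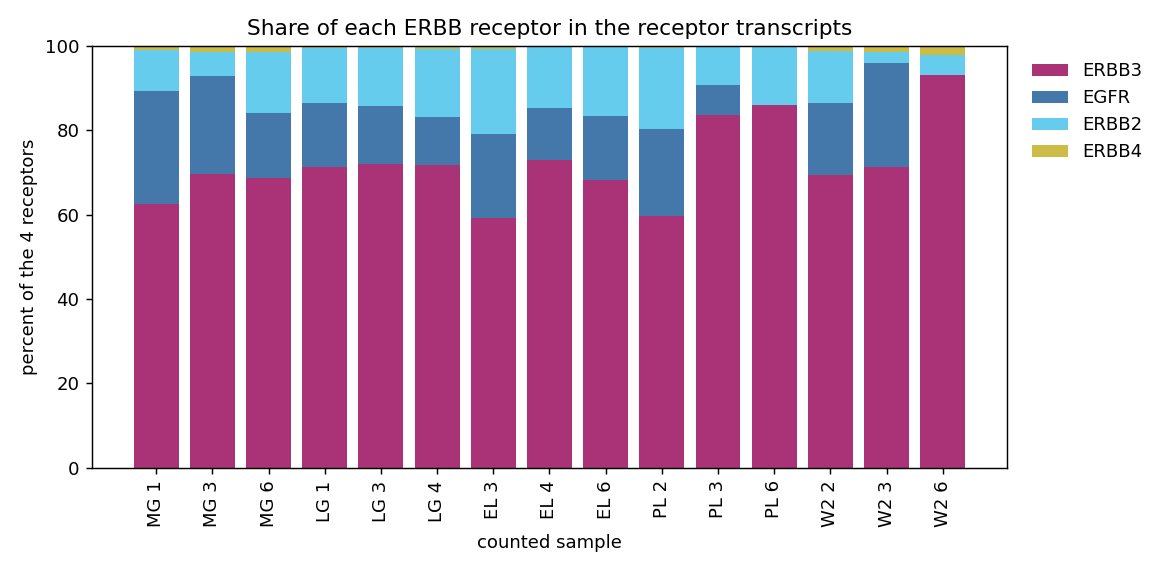
Share of ERBB3, EGFR, ERBB2 and ERBB4 in the summed units of the 4 receptors (percent, stacked to 100) in each counted library. ERBB3 holds 59.2% (EL 3) to 93.0% (W2 6), and EGFR is missing from PL 6 and W2 6.

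By comparison, W2 vs PL had the most calls, with EREG and NRG1 rising and EGF falling, 3 of 10 members beside 32.8% of all features (30.4% rose). In PL vs MG 2 of 10 were called, beside 25.2%, in PL vs LG 2 of 10 beside 14.7%, and in PL vs EL 1 of 10 beside 4.62%. EGF was among the 2.23% of features that rose in PL vs MG, the 1.62% that rose in PL vs LG, the 0.776% that rose in PL vs EL and the 2.48% that fell in W2 vs PL. NRG1 was among the 23.0% that were lower in PL than in MG and the 13.1% lower than in LG. The 6 comparisons among MG, LG, EL and W2 gave 0 calls for the members by limma. All features were called at 0.0115% in LG vs MG and W2 vs MG, 0.0269% in EL vs MG, 0.0154% in EL vs LG, 0.0346% in W2 vs LG and 0.553% in W2 vs EL. At an unadjusted p under 0.05, W2 vs EL gave 4 members (EGF, EREG, HBEGF and ERBB2) beside 25.1% of all features, and EL vs MG gave 2 (EGF and HBEGF) beside 15.9%. EL vs LG gave 1 (EGF) beside 6.18%, W2 vs LG gave 1 (ERBB2) beside 7.56%, and LG vs MG and W2 vs MG gave 0 beside 4.44% and 3.09%. These comparisons share libraries and are not independent. The counted libraries of W2 and PL did not overlap for 5 members (AREG, EREG, HBEGF and NRG1 higher in W2, EGF lower), beside 44.0% of all features. The same held for 5 members in PL vs MG (39.2% of all features), 5 in PL vs LG (33.9%), 5 in W2 vs EL (38.2%), 3 in PL vs EL (18.8%), 3 in LG vs MG (14.4%), 3 in EL vs MG (29.9%), 3 in EL vs LG (18.1%), 2 in W2 vs LG (22.1%) and 1 in W2 vs MG (10.4%).

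**Figure D4:**
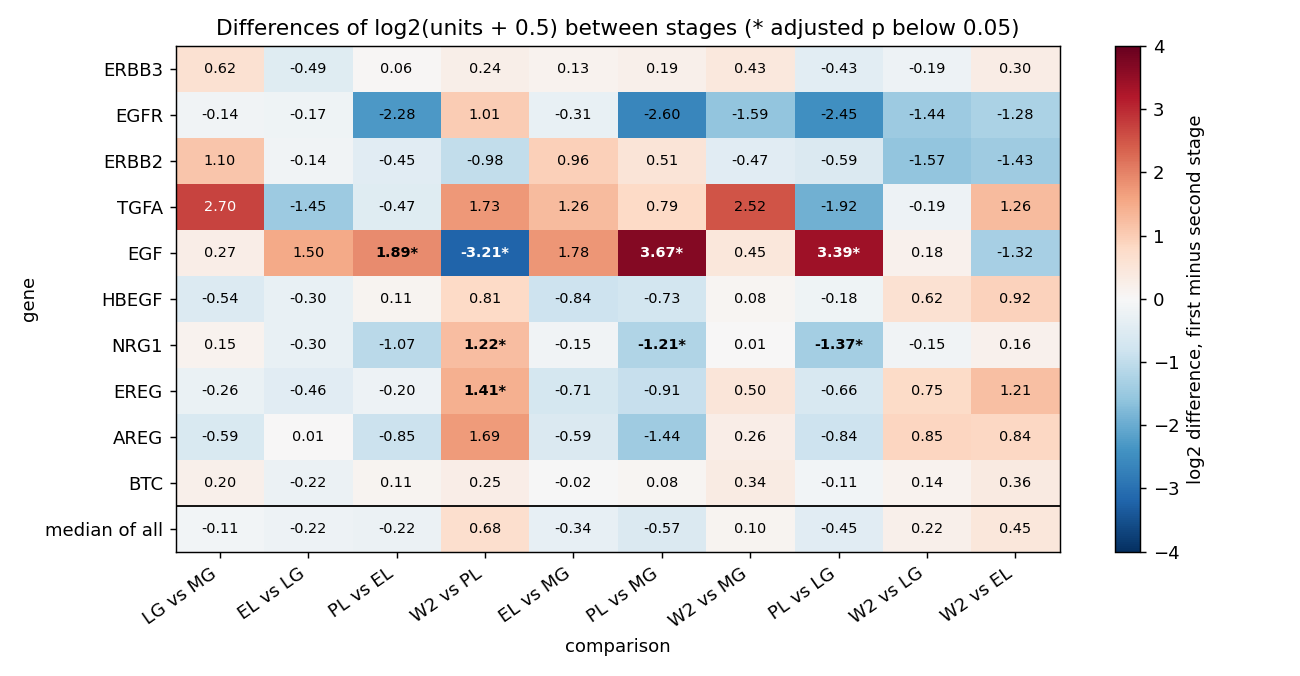
Difference of log2(units + 0.5), first minus second stage, for the 10 members in the 10 comparisons, with the median of all 26019 features in the last line; colour runs from -4 (blue) to 4 (red) and an asterisk marks an adjusted p below 0.05 (limma). The 8 marked cells belong to EGF (4), NRG1 (3) and EREG (1), and each involves PL.

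The background of PL comparisons is itself shifted. The median of all features was lower in PL than in MG by 0.57 on the log2 scale and higher in W2 than in PL by 0.68. When libraries were scaled by the median ratio of 3522 features with at least 10 units throughout, EGF still rose in PL over MG (4.09, limma, adjusted p = 0.00016), LG (3.81, 0.00029) and EL (2.21, 0.011) and fell in W2 (-3.69, 0.00026). NRG1 kept the PL vs LG call alone (-1.28, adjusted p = 0.033). The rise of EREG in W2 no longer passed (1.10, adjusted p = 0.053), which left 1 of 10 members called in W2 vs PL beside 13.1% of all features. The median W2 vs PL difference of the 10 members was 0.91 as deposited and 0.38 after scaling.

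Of a list of 47 further genes of the ErbB pathway, 41 were in the table. NRG2, NRG3, CBL, ARAF, MAP2K1 and FOSL1 have no row, and since several of them are used by nearly every cell, a missing row does not mean a gene without expression. The test over all stages called 12 of 41 (29.3%, beside 18.3% of all features) as deposited and 6 of 41 (beside 8.17%) after scaling. In PL vs MG 13 of 41 (31.7%) were called, all lower in PL, beside 25.2% of all features called and 23.0% lower. In W2 vs PL 16 were called higher and 1 lower as deposited, beside 30.4% and 2.48% of all features, with a median difference of 0.70 against 0.68 over all features. After scaling 4 were called higher and 4 lower (19.5%, beside 13.1% of all features), with a median of 0.0028. The calls and the median of the list thus depend on the scale, and W2 vs PL differences below are given on both.

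Of the 7 targets in the table, 4 passed the test over stages and are given first. ETV5, an ETS transcription factor induced by RAS-MAPK signalling, stood at 1.84, 0.429 and 2.41 units in PL 2, 3 and 6 and at 11.9, 11.4 and 13.5 units in W2 2, 3 and 6. It exceeded PL by 2.78 in W2 (limma, adjusted p = 0.00022; scaled 2.16, adjusted p = 0.0036). CCND1, cyclin D1 of the G1 phase, rose from 7.04 ± 1.7 units (SD, n = 3) in PL to 35.6 ± 9.3 in W2, a log2 difference of 2.25 (limma, adjusted p = 0.00056; scaled 1.54, adjusted p = 0.0068). MYC, a transcription factor of cell growth, went from 3.17 ± 2.2 to 14.1 ± 4.3 units, by 2.14 (limma, adjusted p = 0.0019), but did not pass after scaling (1.46, adjusted p = 0.063). FOS, a subunit of AP-1, moved the other way, from 6.85, 16.2 and 25.4 units in PL to 4.77, 1.38 and 5.95 units in W2. It fell by 1.88 (limma, adjusted p = 0.019) and by 2.56 after scaling (adjusted p = 0.0044), and as deposited it did not pass without PL 6 (adjusted p = 0.066) or W2 3 (adjusted p = 0.079). Of the other targets, JUN differed by -0.19 (limma, adjusted p = 0.71) and by -0.92 after scaling, where it passed (adjusted p = 0.046). EGR1 differed by 0.12 (adjusted p = 0.90) and scaled by -0.60 (adjusted p = 0.46). ETV4 differed by 1.92 (adjusted p = 0.053) and scaled by 1.53 (adjusted p = 0.19).

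Among the feedback inhibitors SPRY4, which restrains RAS-MAPK signalling, rose from 1.23 ± 0.57 units in PL to 5.80 ± 1.4 in W2 (SD, n = 3), by 1.89 as deposited (limma, adjusted p = 0.00048) and 1.30 scaled (adjusted p = 0.0038). Its relative SPRY2 rose by 1.14 (limma, adjusted p = 0.00050) and SOCS4, a suppressor of cytokine signalling, by 1.02 (adjusted p = 0.0036), and neither passed after scaling (0.44, adjusted p = 0.063, and 0.33, adjusted p = 0.14). These are the inhibitors that passed the test over stages. ERRFI1 (2.23, limma, adjusted p = 0.034) and DUSP4 (1.48, adjusted p = 0.041) also rose from PL to W2. Neither passed after scaling (1.74, adjusted p = 0.16, and 0.76, adjusted p = 0.34). DUSP5 was the only inhibitor with a negative difference as deposited (-0.89, limma, adjusted p = 0.13), and after scaling it passed at -1.53 (adjusted p = 0.015). After scaling LRIG1 (-0.55) and SPRY1 (-0.29) were also negative, without passing. The adaptor GRB2 exceeded PL in W2 by 0.73 (limma, adjusted p = 0.012), a value near the shift of all features, and by 0.0028 after scaling, where it did not pass. Among the further ligands NRG4 was listed at 0 in all 3 PL libraries and averaged 0.430 units in W2 (limma, adjusted p = 0.27, and 0.42 scaled), and EPGN differed by 0.38 (adjusted p = 0.24; scaled -0.15, adjusted p = 0.72).

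The proteases and their regulators are the step that frees the ligands. RHBDF1, an inactive rhomboid that escorts ADAM17, rose from 3.10, 5.77 and 2.51 units in EL 3, 4 and 6 to 19.5, 60.3 and 21.6 units in PL 2, 3 and 6, by 2.87 (limma, adjusted p = 0.0075; scaled 3.21, adjusted p = 0.0033). EL itself lay below MG (-1.75) and LG (-1.34), without passing. The PL excess over MG (1.13, limma, adjusted p = 0.12) and LG (1.54, adjusted p = 0.057) passed only after scaling (1.77, adjusted p = 0.035, and 2.04, adjusted p = 0.022). Between W2 and PL it differed by -0.53 (limma, adjusted p = 0.44; scaled -1.26, adjusted p = 0.11). It was the only shedding gene called over the stages. ADAM17 itself differed by 0.098 between W2 and PL (limma, adjusted p = 0.84), and after scaling the difference was -0.63 (adjusted p = 0.047). ADAM10 differed by 0.92 (limma, adjusted p = 0.053; scaled 0.20, adjusted p = 0.64) and RHBDF2 by -0.048 (adjusted p = 0.99; scaled -0.75, adjusted p = 0.57).

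**Figure D5:**
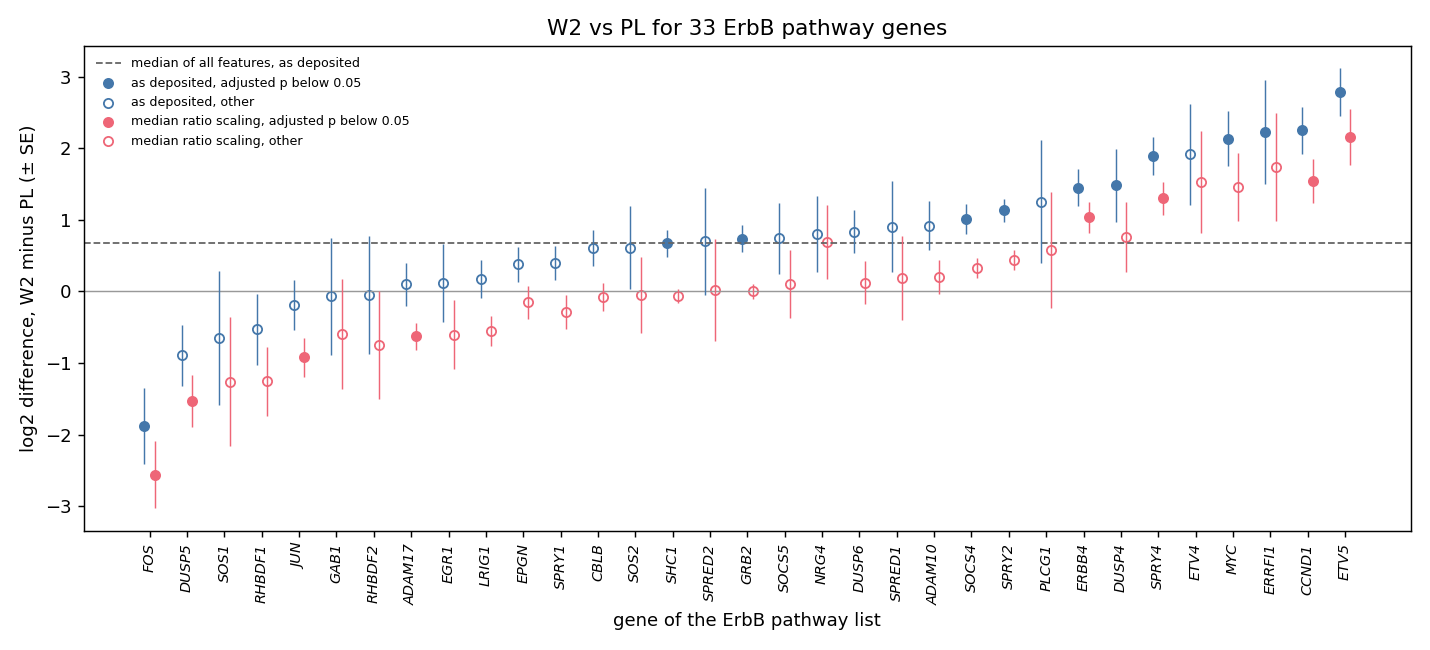
W2 minus PL difference of log2(units + 0.5) with its SE for 33 of the 41 ErbB pathway genes (the RAS-MAPK group is not drawn), as deposited (blue) and after median ratio scaling (red); filled points passed an adjusted p of 0.05 and the dashed line is the median of all features as deposited (0.68). ETV5 (2.78) and FOS (-1.88) lie at the ends, and the middle of the list moves from the dashed line to about 0 with scaling.

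As bulk tissue was sequenced, fewer cells of a type and less RNA per cell cannot be told apart. The luminal markers EPCAM, KRT8, KRT18, KRT19 and ELF5, 5 of 5 present and above 0 in all counted libraries, summed to 771 to 1720 units. Their stage means lay between 1236 units in EL and 1499 units in W2. The summed milk proteins averaged 19581 units in MG, 171680 in PL and 7306 in W2, the macrophage markers (3 of 4 in the table, without CD68) 163, 53.9 and 153 units, and the fibroblast markers (4 of 4) 1469, 541 and 1596 units. Basal markers (3 of 4, without KRT14), endothelial markers (2 of 3, without CDH5) and lymphocyte markers (3 of 3) averaged 1440, 71.8 and 9.82 units in PL, and in W2 the same lists averaged 1517, 100.03 and 11.6 units. Of the adipocyte markers ADIPOQ and PLIN1 have no row, LEP was listed at 0 in 5 libraries, and the list averaged 322 units in PL and 538 in W2. The means of the macrophage, fibroblast, endothelial, adipocyte and lymphocyte sums were all lowest in PL, that of lymphocytes only narrowly (10.0 units in EL). The luminal and basal means were lowest in EL (1236 and 949 units). The median of all features was also lower in PL than in every other stage. Among the members, the means of NRG1, EREG, AREG, TGFA and EGFR were lowest in PL and that of EGF highest. The part of these cell types in the results was not tested.

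For TGFA, ERBB3 and EGF, the 3 reference genes with a mean of at least 5 units whose log2 levels followed them most closely over the 15 counted libraries were sought as a description. EGF was followed by NUPR1 (Pearson r = 0.92), LBP (0.91) and LOC106507819 (0.90). ERBB3 was followed by SOD3 (0.94), ASAP1 (0.94) and CTDSP2 (0.93), and TGFA by VRK3 (0.83), MRPL54 (0.73) and ZC3H3 (0.72). These were the highest of about 8140 correlations each, over libraries that share the differences of scale given above.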

How the data were processed

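The authors prepared TruSeq libraries, trimmed reads (Trimmomatic), mapped these to Sscrofa11.1 (HISAT2) and built and quantified transcripts (StringTie), keeping transcripts at FPKM of at least 0.5 in any stage. They name RUVs, and whether the deposited values include it is not given in the sources used here. The authors give the deposited values as FPKM, but these sum to 997480 to 1002643 per sample, so they were treated as TPM. Row identifiers were matched to the Sscrofa11.1 RefSeq annotation. Assembled rows (29047, with 14.6% to 21.8% of a library's units) carry no coordinates, and any units they hold for a member were not counted.

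Transcripts were summed per gene and fitted as log2(value + 0.5) with limma 3.58.1 in R 4.3.3, with 5 stages in a single fit and trended variance, without a filter or further scaling. The procedure was tested on simulated data. With 3 against 3 libraries an exact two-sided permutation test cannot go below 0.1. All members were named, with the highest transcript of each and every DET, and of the pathway list every gene past the test over stages and all family and shedding genes; 2 genes under this rule are not reported here. The members and lists were chosen with earlier results of these data known. Alternatives were other pseudocounts, a filter, 2 scalings, all 6 or near-identical libraries, a replicate block, no variance trend and each library left out.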

Additional observations from a re-analysis of the deposited data

How the results depend on the processing

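As deposited, 2 members differed between stages, 8 member and comparison pairs and 1 DET were called, and 12 pathway genes differed. Under a pseudocount of 1 the counts of members and DETs were 1 and 0, and a filter of 1 unit in 3 samples gave 1 member. Median ratio scaling gave 1 member, 5 pairs and 6 pathway genes, and quantile normalization 1, 4 and 6. All 6 libraries per stage gave 7 members, 29 pairs, 3 DETs and 36 pathway genes, and near-identical libraries counted once 6, 18, 2 and 27; both rest partly on near copies. The leave-one-out fits gave 1 to 2 members, 6 to 15 pairs (15 without PL 2), 1 to 2 DETs and 9 to 17 pathway genes (17 without PL 2). ERBB3 in PL vs MG ran from -0.29 to 1.10 in those fits, and GRB2 in W2 vs PL was -0.035 under median ratio scaling without PL 2, chosen after seeing the data. The cause was not tested. EGF passed the test over stages in all 11 other settings and all 15 leave-one-out fits. Deviations of same-numbered libraries of different stages were at most weakly correlated (19 pairs, r from -0.12 to 0.14, 4 pairs over 0.1). All pairs among MG 3, EL 3, PL 3 and W2 3 were positive (r from 0.071 to 0.14), and all pairs of LG 3 with these were negative (-0.12 to -0.058). With 3 counted libraries per stage these values cannot tell whether the numbers pair libraries. With the replicate block 1 member passed, EGF in PL vs EL (2.23, adjusted p = 0.068) and NRG1 in PL vs MG (-1.15, adjusted p = 0.11) and PL vs LG (-1.37, adjusted p = 0.14) lost the threshold, and AREG in W2 vs PL gained it (1.69, adjusted p = 0.043). The table holds no read counts, so the counting error of the low ligands is unknown.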
